A study of Mus musculus with 46 samples.

Results

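Martinotti cells and long-projecting cells of the mouse frontal cortex, both marked through the somatostatin (Sst) driver, were compared. Cells were assigned by their labelled type, and 62 Martinotti cells and 136 long-projecting cells, together 198 of the 584 single neurons counted, entered the comparison. They came from 13 of 46 libraries, each of which pooled cells under separate cell barcodes. Martinotti cells carried Sst-Flp with CR-Cre and the Ai65 reporter, which turns on a red fluorescent protein only where both recombinases have acted. They were taken from layer 2/3 of 2 female mice on postnatal day 35, with animal 1 giving libraries 1 and 2 and animal 2 giving libraries 3 and 4. Long-projecting cells carried Sst-Flp with Nos1-Cre and the same Ai65 reporter, and came from 4 male mice on postnatal day 28 or 29, with no layer stated. Animal 15 gave long-projecting libraries 1 to 3, animal 16 libraries 4 and 5, animal 17 libraries 6 and 7, and animal 18 libraries 8 and 9. Every sample is labelled wild type and without experimental treatment, although all also carry a statement of embryonic tamoxifen induction that concerns the Nkx2-1 driver used for another type in the series. Either recombinase line reports a gene's history as well as its present use, so a labelled neuron need not still transcribe the driver gene. Sex, age, the stated layer and the flow cell changed together with the type, and the part of each in any difference below cannot be told apart from that of the type.

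As background, Martinotti cells are inhibitory interneurons whose axon climbs to the outermost layer, where it contacts the distal dendrites of pyramidal neurons. Long-projecting cells are rare GABAergic neurons that make neuronal nitric oxide synthase, somatostatin and neuropeptide Y together, send axons over long distances within the cortex and are known for activity during sleep. Both arise in the medial ganglionic eminence of the embryo, and both release peptides beside GABA.

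Total counts ranged from 1119944 to 3115229 in the 4 Martinotti libraries and from 720573 to 4568242 in the 9 long-projecting libraries, and levels are given as CPM, the counts scaled to library size. In the files, cells that share a library were hardly more different from each other than counting noise allows. The chi-square per degree of freedom between cells of a library was 1.09 to 1.11 in Martinotti cells and 1.23 to 1.39 in long-projecting cells, whereas pairs of libraries of the same type differed by 37.3 to 52.4 and by 5.38 to 25.2 times counting noise. Values are therefore given per library, the animal is the replicate (n = 2 and n = 4), and cells are not counted as replicates. Log2 CPM correlated across genes at 0.803 between the 2 Martinotti animals, at 0.904 to 0.928 between long-projecting animals, and at 0.738 to 0.827 between the types, where genes are not independent replicates. Markers of other cells were counted in some libraries: oligodendrocyte markers summed to 4401 CPM in long-projecting library 2 and to at most 273 CPM in any Martinotti library, and endothelial and mural markers summed to 325 CPM in Martinotti library 4, with none of either list called different. The summed markers of pyramidal neurons were 153 to 292 CPM in Martinotti and 39.9 to 121 CPM in long-projecting libraries, and those of Vip and caudal eminence neurons 155 to 352 and 47.9 to 133 CPM. The part of these other cells in the results was not tested.

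Of 15533 genes tested, 607 (3.91%) differed between the types at an adjusted p under 0.05 in the quasi-likelihood test of edgeR, where p-values were adjusted over all genes by Benjamini and Hochberg. In Martinotti cells 280 (1.8%) were higher and in long-projecting cells 327 (2.11%). The number of calls in each gene list below is to be read beside these shares. In 1480 genes (9.53%) no library of one type overlapped the range of the other, with Martinotti libraries the higher in 3.74% and long-projecting libraries in 5.79% of genes, and 200 and 291 of the called genes were among them. Fitted log2 fold changes are Martinotti over long-projecting, given with their standard error. Over all tested genes the median was -0.05. Many calls were lost without 1 of the 2 Martinotti animals: without animal 2, 118 and 68 genes passed, and without animal 1, 229 and 314. Leaving out long-projecting animal 15, 16, 17 or 18 left 141 to 160 genes higher in Martinotti and 125 to 172 higher in long-projecting cells. No called gene passed in the opposite direction in any of these fits, and the sign of lost calls was not followed for all genes. Of the 121 called genes followed below or in the lists, 43 passed without every animal in turn, and each paragraph names which calls did not. The SD over 2 animals averages libraries of the same animal, so it can be small where libraries spread widely.

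**Figure D1:**
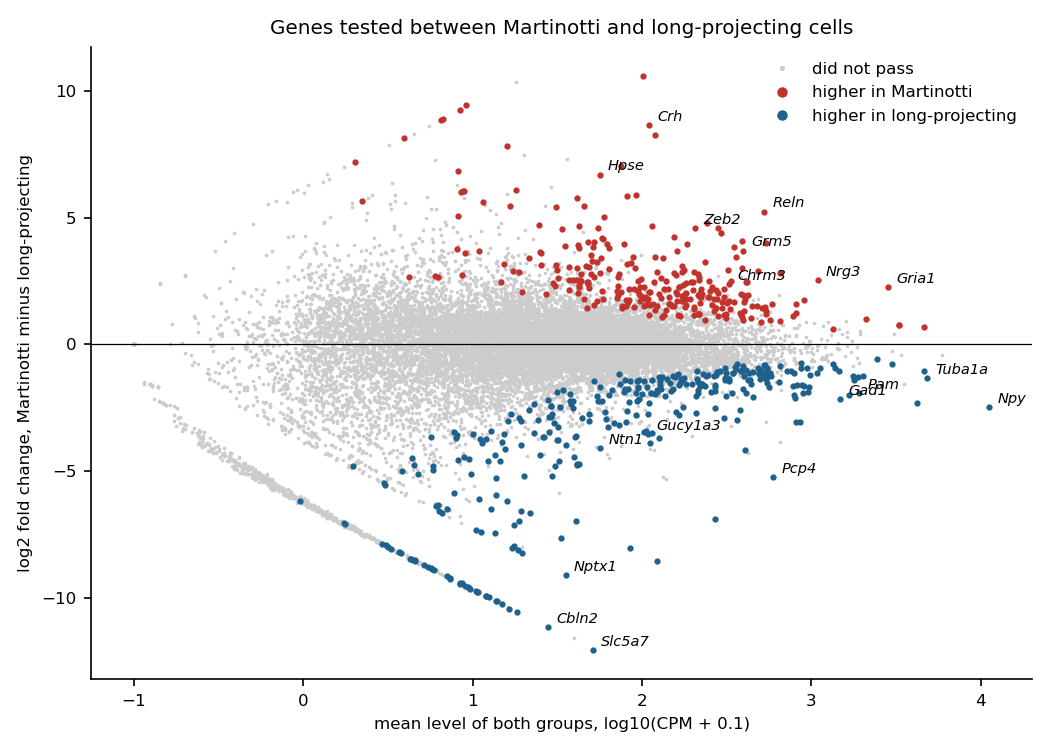
Each point is one of the 15533 tested genes, with its mean level on the x axis (log10 of CPM plus 0.1) and the fitted log2 fold change, Martinotti over long-projecting, on the y axis. Points in 2 colours passed the test, 280 above the line and 327 below it, and the median over all genes is -0.05.

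The driver genes did not all follow the cross. Sst, the peptide whose gene drives Flp in both types, stood at 1080, 1345, 1717 and 1912 CPM in the 4 Martinotti libraries and at 1963, 2120 and 2707 CPM (lowest, median and highest) in long-projecting libraries. The ranges did not overlap, but the means of 1523 ± 426 (SD, n = 2) and 2283 ± 286 (SD, n = 4) did not pass the test (log2 fold change -0.73 ± 0.30, edgeR adjusted p = 0.199). No other type of the series exceeded a mean of 1.57 CPM for Sst. Calb2, which encodes calretinin and drives the Cre of Martinotti cells, was at 33.7, 149, 196 and 41.9 CPM there and at 53.6, 144 and 378 CPM in long-projecting libraries, and did not pass (edgeR adjusted p = 0.536). Martinotti libraries 2 and 3 lay within the long-projecting range and libraries 1 and 4 below it. Nos1, the driver of long-projecting cells and the enzyme that makes nitric oxide in neurons, was at 6.29, 24.1, 1.79 and 2.21 CPM in Martinotti and at 96.8, 148 and 208 CPM in long-projecting libraries. Every long-projecting library lay above every Martinotti library, yet the mean difference, 8.92 ± 9.76 (SD, n = 2) against 141 ± 16.8 CPM (SD, n = 4), missed the threshold in the fit that shares its spread over all types (log2 fold change -4.02 ± 1.15, edgeR adjusted p = 0.0656). It passed in edgeR when only these 6 animals were fitted (adjusted p = 0.00729), in DESeq2 (adjusted p = 0.000868) and in edgeR without Martinotti library 2 alone (adjusted p = 0.0238).

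Of 9 tested Martinotti markers, 3 rose in Martinotti cells and 0 in long-projecting cells. Reln encodes reelin, a secreted matrix glycoprotein. It was at 648, 888, 1455 and 1147 CPM in Martinotti and at 12.5, 17.1 and 46.8 CPM in long-projecting libraries, a 41.1-fold difference of means with no overlap (log2 fold change 5.24 ± 0.56, edgeR adjusted p = 0.000303). Elfn1, a postsynaptic organiser, was at 613, 598, 769 and 879 CPM in Martinotti and 57.1, 109 and 231 CPM in long-projecting libraries, 6.19-fold higher (edgeR adjusted p = 0.0036). Hpse, the enzyme heparanase, was at 40.3, 162, 22.3 and 196 CPM against 0, 1.14 and 1.78 CPM, so that it varied widely among Martinotti libraries and was close to absent in the long-projecting ones (113-fold, edgeR adjusted p = 0.00253). These 3 calls held without each animal in turn. Grin3a, a glutamate receptor subunit, had no overlapping libraries (600.0 to 889.5 against 108 to 300.0 CPM) and did not pass (edgeR adjusted p = 0.114). Calb1, the calcium buffer calbindin, spanned 222 to 1191 CPM in Martinotti libraries and 0 to 663 CPM in long-projecting libraries, where the median was 1.74 CPM, and did not pass either (edgeR adjusted p = 0.343). Crhbp, which binds corticotropin-releasing hormone, lay the other way, at 1859, 1945, 2466 and 1542 CPM in Martinotti and 3494, 5387 and 6285 CPM in long-projecting libraries, a ratio of 2.65 without overlap. It did not pass in the fit over all types (edgeR adjusted p = 0.47) and did when only the 6 animals were fitted (edgeR adjusted p = 0.00373), where the list held 4 calls in Martinotti and 1 in long-projecting cells.

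**Figure D2:**
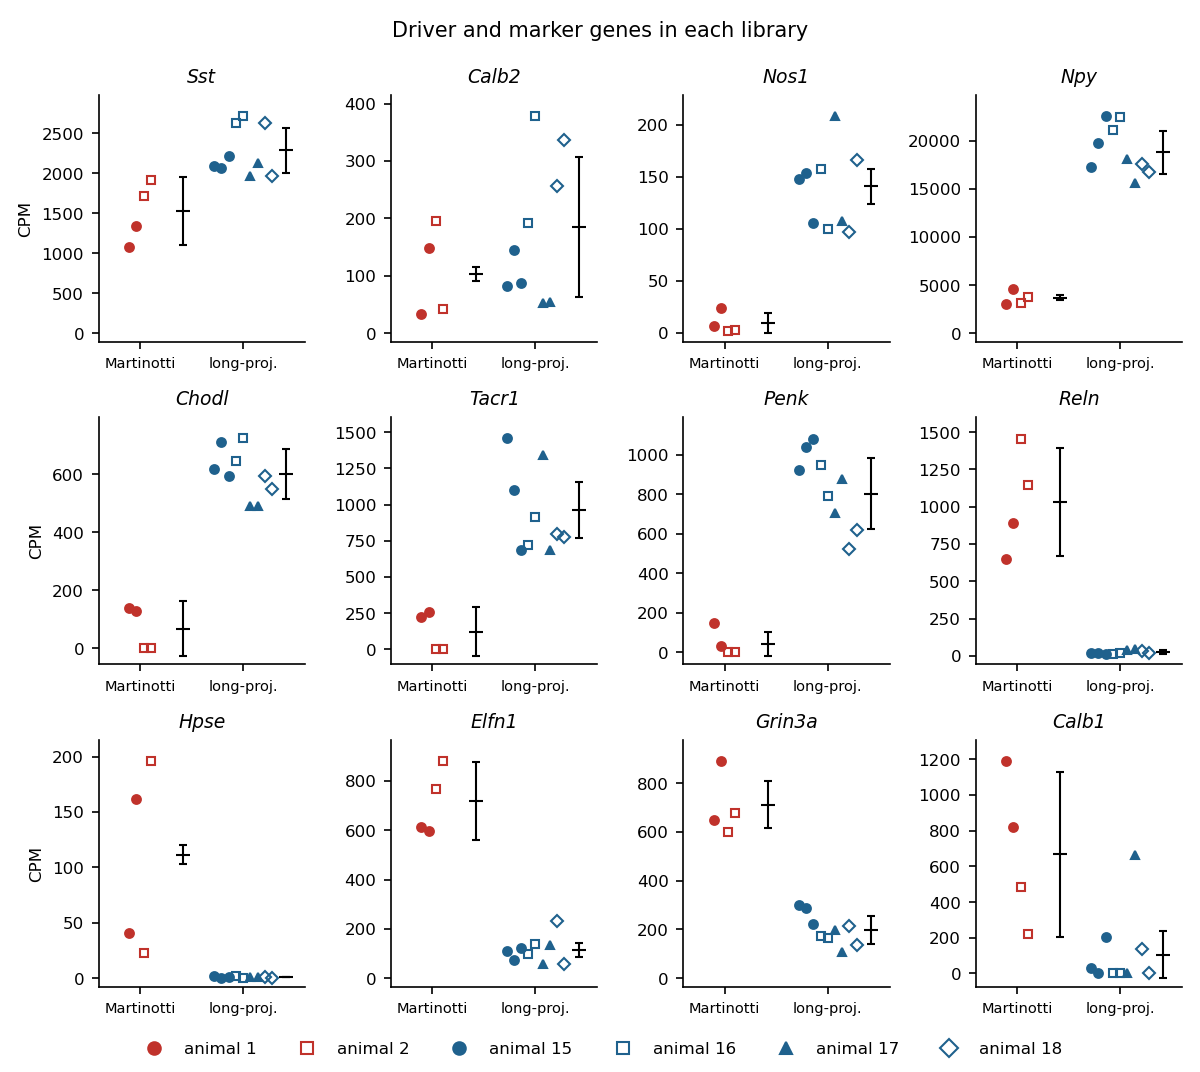
CPM (y axis) in each library of the 2 types (x axis) for 12 driver and marker genes, one panel per gene; symbols mark animals (1 and 2 Martinotti, 15 to 18 long-projecting), and black bars give the mean ± SD over animals. Reln is at 648 to 1455 CPM in Martinotti and 12.5 to 46.8 CPM in long-projecting libraries, while Chodl is at 0 in both libraries of Martinotti animal 2.

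Among 7 markers of type I nNOS neurons, which is another name for long-projecting cells, only Npy passed. Not all members lay toward long-projecting cells: Sv2c, a synaptic vesicle protein, was at 47.4, 18.3, 223 and 53.7 CPM in Martinotti and 20.5, 28.9 and 65 CPM in long-projecting libraries (edgeR adjusted p = 0.208). Oxtr, the oxytocin receptor, was at 233, 48.5, 92 and 75.1 CPM in Martinotti and 118, 240.0 and 326 CPM in long-projecting libraries (edgeR adjusted p = 0.29), with Martinotti library 1 inside the other range. Several others differed between the Martinotti animals. Chodl, a membrane lectin that marks long-projecting neurons, was at 139.9 and 128 CPM in the libraries of animal 1, at 0 in both libraries of animal 2, and at 489, 595 and 724 CPM in long-projecting libraries. It was counted in 32 of 32 cells of animal 1, in 0 of 30 cells of animal 2 and in all 136 long-projecting cells. Tacr1, the substance P receptor, showed the same division, with 219.8 and 259 CPM in animal 1, 0 and 3.68 CPM in animal 2, and 684, 799 and 1459 CPM in long-projecting libraries. Penk, the enkephalin precursor, was at 149 and 30.5 CPM in animal 1, at 0 in animal 2, and at 524, 876 and 1082 CPM in long-projecting libraries, and it was chosen after its values were seen. Penk was counted in 32 of 32 cells of animal 1 and in 0 of 30 of animal 2, and Nos1 in 24 of 32 and 5 of 30. Since cells of a library were so alike, these cell counts say little beyond the library levels. Over both animals none of the 3 passed (edgeR adjusted p = 0.208 for Chodl, 0.159 for Tacr1 and 0.116 for Penk). Without animal 1 each did, at edgeR adjusted p = 0.000707, 0.004 and 0.0157, and Penk also without Martinotti library 1 alone (edgeR adjusted p = 0.0416). Chodl, Tacr1 and Penk were thus measured in both libraries of Martinotti animal 1 at levels below those of any long-projecting library.

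The 15 genes with the largest ratio in each direction, among called genes of at least 50 CPM whose libraries did not overlap, were separated by that rule and are given as levels. Higher in Martinotti cells were Crh, Rasl11a, Igsf3, Hpse, Rara, Cdh7, Kcnk13, Cenpa, Kif26b and Slc30a3 among others. Crh, the stress peptide corticotropin-releasing hormone, was at 8.51, 459.7, 74.1 and 288 CPM in Martinotti libraries and at 0, 0 and 4.61 CPM (lowest, median, highest) in long-projecting libraries. Rasl11a, a Ras-like GTPase, was at 392 and 449 CPM in animal 1, 44.6 and 55.9 CPM in animal 2, and at most 8.33 CPM in long-projecting libraries. Both genes varied several-fold among Martinotti libraries, and their lack of overlap with the other type was required by the rule. Rara, a retinoic acid receptor whose counts are partly shared with other genes and so uncertain, was at 17 to 516 CPM against 0.755 to 10.3 CPM. Hopx, a homeodomain protein without DNA binding whose counts are likewise uncertain, was at 46.8 to 224 CPM against 0.422 to 12 CPM. Slc30a3, the zinc transporter of synaptic vesicles, was at 251, 667, 474 and 442 CPM in Martinotti and 0, 11.8 and 86.5 CPM in long-projecting libraries, 28.5-fold apart (edgeR adjusted p = 0.0442). That call was lost without animal 1, 2, 15, 16 or 18 (edgeR adjusted p up to 0.132), and Kif26b without animal 2, 15, 16 or 17 (up to 0.398). Among single libraries, omitting Martinotti 2 or long-projecting 3, 6 or 8 ended the Slc30a3 call (edgeR adjusted p up to 0.0956), and Martinotti 3 or long-projecting 9 that of Kif26b (up to 0.0602). The calls of Crh, Rasl11a, Igsf3, Rara, Cdh7, Kcnk13, Cenpa and Hopx held without each animal.

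In the other direction several genes were at 0 in all Martinotti libraries. Slc5a7, the high-affinity choline transporter that supplies acetylcholine synthesis in cholinergic neurons, was at 0 in all 4 Martinotti libraries and at 31.9, 97.8 and 162 CPM in long-projecting libraries. Of the other types, Slc5a7 had means of 42.6 CPM in interneuron-selective and 10 CPM in CCK basket cells. Its mean was 0 in PV basket, deep chandelier and upper chandelier cells. Set against a floor of 3 counts over the Martinotti group (0.362 CPM), it was at least 284-fold higher in long-projecting cells (edgeR adjusted p = 0.00174), and the call held without each animal. The other genes of the cholinergic phenotype were not there with it: Chat, the enzyme that makes acetylcholine, had a mean of 0.19 ± 0.219 CPM (SD, n = 4) there, and Slc18a3, the vesicular acetylcholine transporter, was at 0 in all 13 libraries. Cbln2, a secreted synapse organiser, was at 0 in Martinotti and at 24.1, 49.2 and 88.9 CPM in long-projecting libraries, at least 153-fold higher (edgeR adjusted p = 0.0486). The long-projecting mean of Cbln2, 55.3 CPM, lay below those of interneuron-selective (2154 CPM), CCK basket (1271 CPM) and deep chandelier cells (66.4 CPM). It lay above those of PV basket (5.23 CPM) and upper chandelier cells (10.1 CPM). The Cbln2 call was lost without any one of the 6 animals (edgeR adjusted p up to 0.214) and without any single library but long-projecting 4 (up to 0.0643). Sc5d, an enzyme of cholesterol synthesis, was at 0.37, 1.28, 0 and 0.736 CPM against 51.3, 81.5 and 119 CPM, a ratio of 128. Slc7a3, a cationic amino acid transporter whose substrates include arginine, the substrate of nitric oxide synthase, was at 4.81 and 12.2 CPM in Martinotti animal 1, 0 in animal 2, and 344, 557 and 755 CPM in long-projecting libraries. Pcp4, a calmodulin-binding peptide, was at 40.3, 82.8, 0.893 and 0.736 CPM against 750.0, 1068 and 1664 CPM, again with the higher Martinotti values in animal 1. The calls of Slc7a3 and Pcp4 did not survive every omission: without animal 2 Slc7a3 had an edgeR adjusted p of 0.0598, and without animal 15, 16, 17 or 18 Pcp4 had one of up to 0.0688. Nptx1, neuronal pentraxin, had counts in Martinotti library 1 alone (0.37 CPM) and 52.5 to 101 CPM in long-projecting libraries, and its call was lost without any one animal (edgeR adjusted p up to 0.21).

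Genes of the sex chromosomes followed the labelled sexes. Xist, the RNA of the inactive X chromosome, was at 139.5 to 273 CPM in Martinotti libraries of female mice and at no more than 0.444 CPM in long-projecting libraries of male mice, and its antisense partner Tsix at 162 to 312 against 5.55 to 12 CPM, whose reads cannot be told apart from those of Xist where counting ignores the strand. Ddx3y and Eif2s3y of the Y chromosome were higher in the male libraries, at 173 to 244 against 10.7 to 18.9 CPM and at 21.8 to 41.3 against 0 CPM. All 4 passed the test without each animal in turn.

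Of 26 tested neuropeptides and other secreted peptides, 2 rose in Martinotti cells (Crh and Vgf) and 3 in long-projecting cells (Npy, Nxph2 and Nucb2). Many peptide genes respond to cAMP through the response element CRE, searched here as TGACGTCA, which reads the same on both strands. The 250 bases before the annotated start of Sst, which both types make, and of Npy, which separates them, are shown to compare that element, with any match in capitals. The sequences are those of RefSeq on GRCm38.p6, on the strand of the gene, from chr16:23890845-23891094 on the minus strand for Sst and from chr6:49822460-49822709 on the plus strand for Npy.
Sst: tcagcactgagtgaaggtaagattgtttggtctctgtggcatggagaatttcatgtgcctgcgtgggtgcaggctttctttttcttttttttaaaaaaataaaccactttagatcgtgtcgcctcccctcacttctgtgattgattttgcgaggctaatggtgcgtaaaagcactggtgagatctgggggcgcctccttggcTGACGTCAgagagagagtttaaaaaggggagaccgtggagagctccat
Npy: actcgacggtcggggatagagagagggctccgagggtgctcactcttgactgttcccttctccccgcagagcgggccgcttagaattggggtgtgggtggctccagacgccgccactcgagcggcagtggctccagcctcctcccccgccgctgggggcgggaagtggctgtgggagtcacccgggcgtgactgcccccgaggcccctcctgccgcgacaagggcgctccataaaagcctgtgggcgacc
The Sst window holds 1 such element, whose first base lies 48 bases before the start, and the Npy window holds none of these letters. Of 32851 promoter windows of this length, 508 (1.55%) hold it. A match describes the letters and says nothing of a factor's binding.

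Npy, a peptide that dampens excitatory transmission, was at 3061, 4623, 3164 and 3782 CPM in Martinotti and at 15621, 18127 and 22510 CPM in long-projecting libraries. The means of 3700 ± 279 (SD, n = 2) and 18772 ± 2217 CPM (SD, n = 4) were 5.07-fold apart with no overlap (log2 fold change -2.47 ± 0.53, edgeR adjusted p = 0.02). The Npy call was lost without animal 1, 2 or 16 (edgeR adjusted p up to 0.17). Vgf, a peptide precursor induced by neurotrophins, was at 609.9, 942, 1734 and 1673 CPM in Martinotti and 304, 351 and 495 CPM in long-projecting libraries, 3.36-fold higher (edgeR adjusted p = 0.0268). Nucb2, the precursor of nesfatin, was at 1.93 to 8.51 CPM against 21.3 to 85.9 CPM, 12.4-fold higher in long-projecting cells (edgeR adjusted p = 0.036). Without animal 2, 15, 16, 17 or 18 the Vgf call was lost (edgeR adjusted p up to 0.324), and without any one animal that of Nucb2 (up to 0.221). Nxph2 lost its call without animal 1, 2, 15, 16 or 17 (edgeR adjusted p up to 0.132). Single libraries that ended a call were Martinotti 2 and long-projecting 6 for Nucb2 (edgeR adjusted p up to 0.0608), and Martinotti 3 and long-projecting 1 and 5 for Nxph2 (up to 0.0558). None of 29 tested peptide receptors passed in edgeR, while 10 had an unadjusted p under 0.05 and DESeq2 called 1 higher in Martinotti and 3 in long-projecting cells.

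Of 15 genes of dense-core granules and peptide processing, 1 rose in Martinotti cells and 2 in long-projecting cells. Pam, the enzyme that amidates peptides, was at 1245, 952, 630.4 and 626 CPM in Martinotti and at 2222, 3123 and 3448 CPM in long-projecting libraries, with no overlap and a 3.47-fold difference (log2 fold change -1.91, edgeR adjusted p = 0.000933). Neuropeptide Y is amidated at its end, and somatostatin is not. Scg3, a granin that sorts cargo into granules, was 2.18-fold higher in long-projecting cells (96 ± 30.8, SD, n = 2, against 209.7 ± 22.9 CPM, SD, n = 4; edgeR adjusted p = 0.0454). Ptprn2, a granule membrane protein, was 2.06-fold higher in Martinotti cells (edgeR adjusted p = 0.0352). The Scg3 call was lost without animal 2, 15, 16, 17 or 18 (edgeR adjusted p up to 0.307) and that of Ptprn2 without animal 1, 2, 15, 16 or 17 (up to 0.16). It was also lost for Scg3 without any single library but Martinotti 2 and long-projecting 2 and 6 (edgeR adjusted p up to 0.0812), and for Ptprn2 without Martinotti 2 or long-projecting 9 (up to 0.0746). Resp18, a protein of the endocrine secretory pathway and one of the 15 largest ratios, was at 23.7, 57.1, 13.4 and 86.8 CPM against 586, 729.8 and 886 CPM, 16-fold apart (edgeR adjusted p = 0.00174). Both the Pam and the Resp18 calls held without each animal.

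Nitric oxide acts mainly through soluble guanylate cyclase, a dimer of an alpha and a beta subunit that makes cGMP, and of 24 genes of this pathway 2 rose in long-projecting cells and 0 in Martinotti cells. They were subunits of that enzyme. Gucy1a3, an alpha subunit, was at 17.4, 40.4, 7.14 and 5.15 CPM in Martinotti and 167, 198 and 239 CPM in long-projecting libraries, 11.1-fold higher without overlap (edgeR adjusted p = 0.00286). Gucy1b3, the beta subunit, was at 8.51, 32.4, 17 and 27.2 CPM against 82.4, 97.3 and 103 CPM, 4.29-fold higher (edgeR adjusted p = 0.0243). In these libraries the nitric oxide synthase and both subunits of its receptor thus stood higher in the same type, although Nos1 itself missed the threshold. The Gucy1b3 call was lost without any one animal (edgeR adjusted p up to 0.154) and without Martinotti library 1 alone (0.0557), whereas that of Gucy1a3 held without each animal. Gucy1a2, the other alpha subunit, had means of 84.2 ± 33.3 (SD, n = 2) and 74.6 ± 9.73 CPM (SD, n = 4) (edgeR adjusted p = 0.985). Prkg1, the kinase activated by cGMP, was at 160.2 ± 38.4 and 103 ± 17.6 CPM (edgeR adjusted p = 0.364).

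Of 22 genes that make or break down cAMP, 1 rose in each type. Adcy2, an adenylate cyclase, was at 429, 693, 421 and 598 CPM in Martinotti and at 112, 163 and 186 CPM in long-projecting libraries, 3.49-fold higher (edgeR adjusted p = 0.00594), and its call held without each animal. Pde4b, a cAMP phosphodiesterase whose counts are partly shared and so uncertain, was at 5.39 to 25.3 CPM against 36.6 to 91.2 CPM, 4.3-fold higher in long-projecting cells (edgeR adjusted p = 0.0211). Its call was lost without animal 1, 2 or 15 (edgeR adjusted p up to 0.114). Each direction thus held a single call of 22 genes, where 1.8% and 2.11% of all tested genes were called, and no direction is given for the list.

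Glutamate receptors and their auxiliary proteins were called mostly toward Martinotti cells. Of 33 tested, 9 rose in Martinotti cells and 0 in long-projecting cells, the median log2 fold change was 0.89 against -0.05 over all genes, and 25 of the 33 were above 0. Gria1, an AMPA receptor subunit, was at 5561, 3416, 6064 and 4293 CPM in Martinotti and at 779, 920.0 and 993 CPM in long-projecting libraries, 5.24-fold higher with no overlap (log2 fold change 2.26 ± 0.27, edgeR adjusted p = 0.000642). The means of the other 5 types ran from 525 to 1885 CPM, so that Martinotti cells lay above them all and long-projecting cells among them. Grm5, a metabotropic receptor, was at 945, 633, 721 and 667 CPM in Martinotti and at 30.2, 44 and 138 CPM in long-projecting libraries, 13.8-fold higher (log2 fold change 3.70 ± 0.40, edgeR adjusted p = 0.000303). For Grm5 the other types had means of 299 to 682 CPM, and the long-projecting mean of 53.1 ± 28.1 CPM (SD, n = 4) lay below all of them while the Martinotti mean of 735 ± 61.4 CPM (SD, n = 2) lay above. Gria3 and Gria4, further AMPA subunits, were 3.99-fold and 2.77-fold higher in Martinotti cells (edgeR adjusted p = 0.00777 and 0.00507).

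Further called members of this list lie outside the rule for named genes and are named after their values were seen. Grin1, the obligatory NMDA receptor subunit, was at 227, 186, 277 and 216 CPM in Martinotti and at 54.3, 67 and 94.4 CPM in long-projecting libraries (edgeR adjusted p = 0.0328). Cacng2, the AMPA auxiliary protein stargazin, was 2.8-fold higher (edgeR adjusted p = 0.0231), and Neto1 and Neto2, auxiliary proteins of kainate receptors, passed as well (edgeR adjusted p = 0.0429 and 0.0387). The counts of Gria1 and Gria4 are partly shared with other genes and so uncertain. Gria1 and Grm5 passed without each animal, whereas Gria3 and Gria4 were lost without animal 2 (edgeR adjusted p = 0.0598 and 0.0922), Cacng2 without animal 2, 16 or 18 (up to 0.216), and Grin1, Neto1 and Neto2 without any one animal (up to 0.166, 0.261 and 0.225). Single libraries that ended a call were Martinotti 3 and long-projecting 4 and 7 for Neto1 (edgeR adjusted p up to 0.0589), and Martinotti 4 and long-projecting 4, 6 and 9 for Neto2 (up to 0.0852). In the list as a whole 5 members passed without animal 1 and 2 without animal 2, with 0 in the other direction in both. Calls in Martinotti and long-projecting cells were 12 and 1 with DESeq2, 11 and 1 with 18 animals, and 14 and 3 with only the 6 animals. The median stayed above 0 under every scaling tried.

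The muscarinic receptors Chrm3 and Chrm2 were called in opposite directions. Of 11 tested acetylcholine receptors 1 rose in each type. Chrm3, coupled to Gq, was at 499, 582, 649 and 508 CPM in Martinotti and 46.1, 95.3 and 133 CPM in long-projecting libraries, 5.69-fold higher (edgeR adjusted p = 0.00174), and this held without each animal. Chrm2, coupled to Gi, was at 9.99, 39.8, 11.6 and 13.2 CPM against 129.7, 244 and 343 CPM, 12.1-fold higher in long-projecting cells (edgeR adjusted p = 0.00721), which was lost without animal 2 (edgeR adjusted p = 0.095). Neither gene had overlapping libraries. Of 22 monoamine receptors only Adra1a, an adrenergic receptor, passed, at 0.37, 29.5, 33 and 0 CPM in Martinotti and 47.5, 107 and 212 CPM in long-projecting libraries (edgeR adjusted p = 0.0487), and its call was lost without any one animal (up to 0.251) and without any single library but Martinotti 2 and long-projecting 1, 3 and 7 (up to 0.112).

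Of 14 GABA receptor genes 1 rose in Martinotti and 2 in long-projecting cells. Gabbr2, a subunit of the metabotropic GABA-B receptor, was at 369.7, 51.7, 78.6 and 143 CPM in Martinotti and 15.1, 30.1 and 59.9 CPM in long-projecting libraries, with Martinotti library 2 inside the other range (4.65-fold, edgeR adjusted p = 0.0127). Without Martinotti animal 1 or library 1 alone its edgeR adjusted p was 0.107 and 0.136. Gabrg3 and Gabrb1, subunits of GABA-A receptors, were 1.91-fold and 3.46-fold higher in long-projecting cells (edgeR adjusted p = 0.00934 and 0.0279), and did not overlap. Gabrg3 was lost without animal 1 or 2 (edgeR adjusted p up to 0.0598) and Gabrb1 without animal 2, 15, 16, 17 or 18 (up to 0.184).

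**Figure D3:**
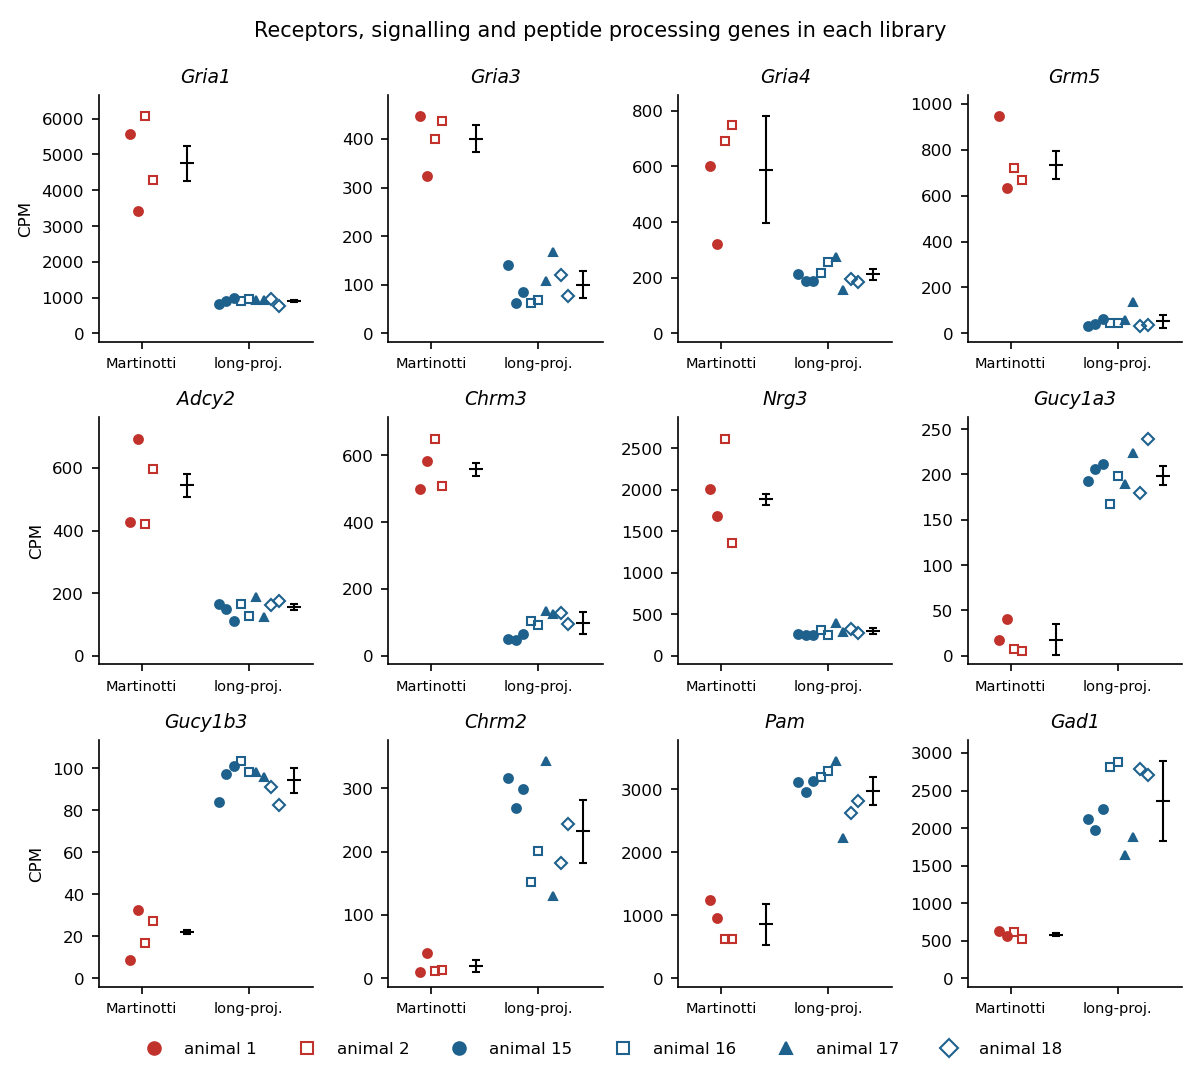
CPM (y axis) in each library of the 2 types (x axis) for 12 genes of receptors, second messengers, peptide processing and GABA synthesis, one panel per gene; symbols mark animals and black bars give the mean ± SD over animals. Gria1 is at 3416 to 6064 CPM in Martinotti and 779 to 993 CPM in long-projecting libraries, and Gucy1a3 and Chrm2 lie the other way round.

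Potassium channel genes were called in both directions, 6 of 60 in Martinotti and 4 in long-projecting cells. Kcnk13, a leak channel named above, was at 22.9, 184, 59.8 and 73.6 CPM in Martinotti and at 0, 1.71 and 5.99 CPM in long-projecting libraries (edgeR adjusted p = 0.0023). Kcna6, a Kv1 subunit, was at 398 to 498 CPM against 29.8 to 214 CPM, 3.68-fold higher in Martinotti cells (edgeR adjusted p = 0.0203). Kcnq3, a subunit of M-current channels, was 4.12-fold higher there (edgeR adjusted p = 0.0238). Kcns3, a silent modulatory subunit, was 5.15-fold higher (edgeR adjusted p = 0.0247). In long-projecting cells Kcnip4, a partner of Kv4 channels, was at 96.8, 165 and 267 CPM against 18.7, 19.1, 14.8 and 22.4 CPM in Martinotti libraries, 9.83-fold higher (edgeR adjusted p = 0.00422). Kcna5, another Kv1 subunit, was at 6.45 to 37.6 CPM in long-projecting and 0 in all Martinotti libraries, at least 51.7-fold higher (edgeR adjusted p = 0.0273). Different members of the Kv1 family were thus higher in different types.

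The counts of Kcnip4 and Kcns3 are partly shared and so uncertain. Kcnk13 alone of these passed without each animal. Kcna6 was lost without animal 1, 2, 16 or 18 (edgeR adjusted p up to 0.0945), Kcnq3 without 1, 2, 15 or 16 (up to 0.122), Kcns3 without 1, 2, 15, 16 or 18 (up to 0.0901), Kcnip4 without 2 (0.0651) and Kcna5 without any one animal (up to 0.126). Without Martinotti library 3 alone Kcns3 had an edgeR adjusted p of 0.0533. Of 32 sodium, calcium and HCN channel genes 2 rose in Martinotti and 0 in long-projecting cells. The calls were 3 and 3 with DESeq2, 4 and 4 with only the 6 animals, and 2 and 1 with 18 animals. Cacnb4, a calcium channel beta subunit with partly shared counts, was 2.89-fold higher (edgeR adjusted p = 0.00365), and its call held without each animal.

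GABA synthesis differed in 1 of its 7 genes. Gad1, which encodes the larger glutamate decarboxylase, was at 635, 560.5, 614 and 520.3 CPM in Martinotti and 1646, 2252 and 2884 CPM in long-projecting libraries, 4.07-fold higher there without overlap (log2 fold change -2.17 ± 0.28, edgeR adjusted p = 0.00085). Its call held without each animal. Gad2, the other decarboxylase, stood at 1046 ± 23.9 (SD, n = 2) and 1109 ± 152 CPM (SD, n = 4) (edgeR adjusted p = 0.69), and Slc32a1, the vesicular GABA transporter, at 1799 ± 217 and 1232 ± 106 CPM (edgeR adjusted p = 0.183). The ratio of means was therefore large for 1 decarboxylase and 1.06 for the other.

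Of 46 genes of vesicle release 1 rose in Martinotti and 3 in long-projecting cells, where 1.8% and 2.11% of all tested genes were called. Unc13c, a vesicle priming protein, was at 171, 140.0, 266 and 598 CPM in Martinotti and 7.8, 22.8 and 38.3 CPM in long-projecting libraries, 14.3-fold higher (edgeR adjusted p = 0.00269). Means of the other 5 types were 16.6 to 40.7 CPM, so Martinotti cells were the type apart. Syt6, a synaptotagmin, was at 1.48 CPM in Martinotti library 1 and at 0 in the other Martinotti libraries, and at 7.44, 32.7 and 109 CPM in long-projecting libraries (edgeR adjusted p = 0.0189). Sv2b, a vesicle glycoprotein, and Vamp1, a vesicle SNARE, were 8.91-fold and 3.57-fold higher in long-projecting cells (edgeR adjusted p = 0.0205 and 0.0454). Unc13c and Syt6 were lost without animal 2 (edgeR adjusted p = 0.0666 and 0.132), Sv2b without 1, 2, 15, 16 or 17 (up to 0.17), and Vamp1 without any one animal (up to 0.219). Single libraries that ended a call were Martinotti 4 for Sv2b (edgeR adjusted p = 0.0547), and Martinotti 2, 3 and 4 and long-projecting 4, 7 and 9 for Vamp1 (up to 0.131). Of 19 calcium-binding proteins only Ncald, a neuronal calcium sensor with partly shared counts, passed, 3.5-fold higher in long-projecting cells (edgeR adjusted p = 0.0295). It was lost without animal 2, 15, 16, 17 or 18 (up to 0.234) and without Martinotti library 3 alone (0.052).

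Of 20 tested genes of neurofilaments, the axonal cytoskeleton and growth cone, 0 rose in Martinotti and 5 in long-projecting cells, with a median log2 fold change of -0.55. Map1a, Map1b, Map2, Map6, Tubb4 and Sptbn1 of this list were not among the genes counted. Ribosomal and oxidative phosphorylation genes, described below, had medians of -0.56 and -0.62, so a shift of this size was not particular to axonal genes. Tuba1a, the main alpha tubulin of neurons, was at 2685, 3085, 3208 and 2803 CPM in Martinotti and 6073, 6540 and 7441 CPM in long-projecting libraries, 2.27-fold higher with tight ranges (log2 fold change -1.31 ± 0.16, edgeR adjusted p = 0.000657). Gap43, a growth cone protein, was at 327, 611, 689 and 277 CPM against 1102, 1231 and 1663 CPM, 2.84-fold higher (edgeR adjusted p = 0.017). Stmn2, which regulates microtubule growth, was at 362, 742, 265 and 332 CPM against 1011, 1182 and 1367 CPM, 2.77-fold higher (edgeR adjusted p = 0.0111). None of these ranges overlapped, and for Tuba1a, Gap43 and Stmn2 the long-projecting mean also lay above that of every other type (at most 3112, 494 and 517 CPM).

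Dpysl2, a microtubule-assembly protein also called CRMP2, and Basp1, a membrane phosphoprotein of growth cones, were each 1.97-fold higher (edgeR adjusted p = 0.0243 and 0.0252). Basp1 is outside the rule for named genes. The Tuba1a call held without each animal. The others did not: Gap43 was lost without animal 1, 2, 16 or 18 (edgeR adjusted p up to 0.143), Stmn2 without animal 2 (0.123) and without Martinotti library 1 (0.0622), Dpysl2 without 2, 15, 16, 17 or 18 (up to 0.208) and Basp1 without 1, 2, 15, 16 or 18 (up to 0.123). Without Martinotti library 4 alone Gap43 and Basp1 had an edgeR adjusted p of 0.0576 and 0.0566, and without library 2 Dpysl2 had one of 0.0636. In the list 4 members passed without animal 1 and 1 without animal 2. Other fits also called members higher in Martinotti cells, 1 against 7 with DESeq2, 1 against 6 with 18 animals and 2 against 7 with only the 6 animals. The median stayed below 0 under every scaling tried. The motor proteins that carry cargo along axons did not show such calls: of 22 kinesin and dynein genes edgeR and DESeq2 called 0, and 0 had an unadjusted p under 0.05.

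At the axon initial segment and nodes, 3 of 17 genes rose, all in Martinotti cells, with a median log2 fold change of 0.66. Among them were Kcnq3, described above, and Ank3, the scaffold of the initial segment. Ank3 was at 719, 646, 288 and 479.8 CPM in Martinotti and 215, 258 and 293 CPM in long-projecting libraries, with Martinotti library 3 inside the other range (2.11-fold, edgeR adjusted p = 0.05, under the threshold before rounding). Its counts are partly shared, and its call was lost without animal 1, 15, 16, 17 or 18 (edgeR adjusted p up to 0.427) and without Martinotti library 4 or long-projecting library 2, 3, 6, 7, 8 or 9 (up to 0.118). Without animal 1 no gene of this list passed, and without animal 2 there were 2.

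Of 22 Slit, netrin and other guidance genes 3 rose in Martinotti and 2 in long-projecting cells, and they include members of the same ligand and receptor system. Ntn1, the guidance ligand netrin, was at 5.92, 5.14, 0 and 14.7 CPM in Martinotti and 51.8, 96.1 and 176 CPM in long-projecting libraries, 15.7-fold higher (edgeR adjusted p = 0.0031). Unc5d, a receptor of the UNC5 family, was at 271, 99.5, 65.2 and 32.4 CPM against 327, 630.3 and 815 CPM, 5.67-fold higher in long-projecting cells (edgeR adjusted p = 0.00492). Its relative Unc5c went the other way, at 114, 98.2, 881 and 425 CPM in Martinotti and 46.2, 76.5 and 142 CPM in long-projecting libraries (4.43-fold, edgeR adjusted p = 0.0412). The libraries of Martinotti animal 1 overlapped the long-projecting range for Unc5c, and those of animal 2 did not. Robo2, a Slit receptor, was 4.09-fold higher in Martinotti cells (edgeR adjusted p = 0.00479), and Dscaml1, an adhesion molecule of self-avoidance, 5.94-fold (edgeR adjusted p = 0.00207). Ntn1, Unc5d and Dscaml1 passed without each animal, Robo2 was lost without animal 2 (edgeR adjusted p = 0.0876) and Unc5c without 2, 15, 16, 17 or 18 (up to 0.845) and without Martinotti library 3 or long-projecting library 5 alone (up to 0.0762). Of 42 semaphorin and ephrin genes edgeR called 0, with 10 at an unadjusted p under 0.05, and DESeq2 called 2 higher in Martinotti and 3 in long-projecting cells.

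Of 27 cadherins and protocadherins, adhesion proteins that pair like with like, 5 rose in Martinotti and 0 in long-projecting cells (median log2 fold change 0.47). Cdh7 was at 126, 101, 329 and 113 CPM in Martinotti and 0.431, 1.41 and 10.6 CPM in long-projecting libraries (60.2-fold, edgeR adjusted p = 0.000951). Pcdh8 was at 933, 255, 296 and 92 CPM against 15.7, 58.3 and 107 CPM (6.36-fold, edgeR adjusted p = 0.00492), and Pcdh11x at 123 to 215 against 12.6 to 47.9 CPM (6.07-fold, edgeR adjusted p = 0.00594). Cdh13, a cadherin anchored by a lipid, was 3.08-fold higher (edgeR adjusted p = 0.0174). Only Pcdh8 had a Martinotti library, the fourth, inside the long-projecting range. Cdh7 and Pcdh11x held without each animal, Pcdh8 was lost without animal 1 (edgeR adjusted p = 0.0943) and Cdh13 without animal 2 or 17 (up to 0.138). The fifth, Cdh9, lies outside the rule for named genes, passed only before rounding (edgeR adjusted p = 0.05) and was lost without any one animal (up to 0.156) and without any single library but Martinotti 2 and long-projecting 4, 6 and 8 (up to 0.0752). Without animal 1 or animal 2 there were 3 calls, DESeq2 and the fit of 18 animals each gave 7 with 1 in the other direction, and the median stayed above 0 under every scaling tried.

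Synaptic adhesion genes numbered 51, of which 5 rose in Martinotti and 2 in long-projecting cells. Nlgn1, a postsynaptic neuroligin, was at 482, 356, 464 and 354 CPM in Martinotti and 105, 125 and 179.9 CPM in long-projecting libraries, 2.94-fold higher (edgeR adjusted p = 0.000874). Nrxn3, one of its presynaptic partners, was at 3030, 2598, 3184 and 2916 CPM against 1135, 1292 and 1612 CPM, 2.21-fold higher (edgeR adjusted p = 0.00789). Both sides of this synaptic pair thus had separate ranges, although the counts of both genes are partly shared and so uncertain. Il1rapl1, another synapse organiser, was at 60.3, 203, 113 and 119 CPM in Martinotti and 263, 400.0 and 547 CPM in long-projecting libraries, 3.24-fold higher there (edgeR adjusted p = 0.00234). Cntnap5a, a contactin-associated protein, was 3.43-fold higher in Martinotti cells (edgeR adjusted p = 0.0161). Nlgn1 and Il1rapl1 held without each animal, Nrxn3 was lost without animal 2 (edgeR adjusted p = 0.0676) and Cntnap5a without animal 1 or 17 (up to 0.186). Elfn1 and Cbln2, described above, were among the 7, as was Nrxn2 (edgeR adjusted p = 0.0356), which is outside the rule for named genes and was lost without any one animal (up to 0.156) and without Martinotti library 4 or long-projecting library 9 alone (up to 0.0733).

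Of 55 genes of the extracellular matrix and proteoglycans 7 rose in Martinotti and 3 in long-projecting cells. Thsd7a, a membrane protein with thrombospondin repeats, was at 1171, 665, 683 and 487 CPM in Martinotti and 14.7, 39.9 and 77.3 CPM in long-projecting libraries, 18-fold higher (log2 fold change 4.06 ± 0.38, edgeR adjusted p = 9.57e-05). Col19a1, a collagen of synapse assembly, was at 413, 562, 1276 and 458 CPM against 16, 35.8 and 101 CPM, 12-fold higher (edgeR adjusted p = 0.00163). Both calls held without each animal, as did those of Reln and Hpse. Another collagen, the membrane-bound Col25a1, was at 366, 249, 93.8 and 62.6 CPM in Martinotti and 1252, 1499 and 1917 CPM in long-projecting libraries, 7.97-fold higher there (edgeR adjusted p = 0.0143). It too was higher in Martinotti animal 1 than in animal 2, and its call was lost without animal 2 (edgeR adjusted p = 0.111). Ndst4, an enzyme of heparan sulfate synthesis, was 5.86-fold higher in long-projecting cells (edgeR adjusted p = 0.0247), lost without 1, 2, 15, 17 or 18 (up to 0.173) and without long-projecting library 6 alone (0.0581). Heparanase, which cuts heparan sulfate, was higher in Martinotti cells, and Ndst4, which modifies the chain, in long-projecting cells. These are single members of the list, and no direction is given for heparan sulfate genes.

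Of 43 growth factors and receptor kinases 1 rose in each type, where 1.8% and 2.11% of all tested genes were called. Nrg3, a neuregulin ligand of ErbB4, was at 2012, 1690, 2616 and 1365 CPM in Martinotti and 248, 278 and 391 CPM in long-projecting libraries, 6.39-fold higher (log2 fold change 2.55 ± 0.19, edgeR adjusted p = 8.6e-06). The call held without each animal, and the other types had means of 987 to 1452 CPM, so that Martinotti cells lay above and long-projecting cells below them all. Alk, a receptor kinase, was at 45.5, 124, 12.5 and 146 CPM in Martinotti and 179, 449.9 and 672 CPM in long-projecting libraries, 5.19-fold higher there (edgeR adjusted p = 0.00742, and 0.0901 without animal 2).

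Regulators of G-protein signalling (RGS proteins), which shorten receptor signals, rose in Martinotti cells in 3 of 17 and in long-projecting cells in 0, with a median log2 fold change of 0.65 that was 0.07 without animal 2. Rgs6 was at 213, 233, 441 and 297 CPM in Martinotti and 7.77, 13.9 and 25.7 CPM in long-projecting libraries, 20.3-fold higher (log2 fold change 4.22 ± 0.46, edgeR adjusted p = 0.000303). Rgs7 and its membrane anchor Rgs7bp were 3.72-fold and 3.81-fold higher (edgeR adjusted p = 0.00848 and 0.0099). Rgs6 and Rgs7 are relatives that Rgs7bp anchors, and all 3 had separate ranges. Rgs6 held without each animal, while Rgs7 was lost without animal 2 (edgeR adjusted p = 0.0598) and Rgs7bp without animal 1 (0.0555).

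Of 58 transcription regulators 5 rose in Martinotti and 0 in long-projecting cells. Other fits made calls on both sides: 8 and 5 with DESeq2, 9 and 4 with only the 6 animals, 7 and 3 with 18 animals, 5 and 1 without a filter on low counts, and 5 and 2 without animal 1. The median log2 fold change of 0.38 turned to -0.33 without animal 2, so no direction is given for the list. Zeb2, which directs the migration and fate of interneurons from the medial eminence, was at 365, 436, 345 and 425 CPM in Martinotti and 0.863, 11.1 and 40.4 CPM in long-projecting libraries, 25.7-fold higher (log2 fold change 4.60 ± 0.52, edgeR adjusted p = 0.000368). The other types had Zeb2 means of 376 to 1039 CPM, so that only long-projecting cells stood near 0. Maf, a factor of Sst interneuron fate, was at 398, 253, 288 and 299 CPM in Martinotti and 19.8, 34.7 and 56.5 CPM in long-projecting libraries, 8.18-fold higher (edgeR adjusted p = 0.0023). Npas1 and Npas3, related bHLH-PAS factors, were each 25.1-fold higher (edgeR adjusted p = 0.00451 and 0.0205), and Nr2f1, a nuclear receptor of cortical area identity, 15.8-fold (edgeR adjusted p = 0.0158). Npas1 also stands in the list of Vip and caudal eminence markers, whose summed level was higher in Martinotti libraries as given above. Zeb2, Maf and Npas1 held without each animal, Npas3 was lost without 2, 15, 16 or 18 (edgeR adjusted p up to 0.0952) and Nr2f1 without 1 or 18 (up to 0.0588).

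Of 14 genes shared by Sst neurons and the medial eminence lineage 4 rose in Martinotti cells, namely Zeb2, Maf, Npas3 and the homeobox gene Dlx5, and 0 in long-projecting cells. Dlx5 was at 159, 118, 19.6 and 31.6 CPM in Martinotti and 1.09, 13.4 and 35.4 CPM in long-projecting libraries (edgeR adjusted p = 0.036), with animal 2 inside the long-projecting range. Its call was lost without animal 1, 15, 16 or 18 (edgeR adjusted p up to 0.572) and without long-projecting library 6, 8 or 9 alone (up to 0.0855). Lhx6, the factor that specifies these interneurons, was at 78.2 ± 11.9 (SD, n = 2) and 115 ± 25.1 CPM (SD, n = 4) (edgeR adjusted p = 0.35), and Sox6, which acts after it, at 339.9 ± 71.4 and 479 ± 66.1 CPM (edgeR adjusted p = 0.291). Satb1, a chromatin organiser of Sst neurons, was at 259 ± 19.4 and 241 ± 56.9 CPM (edgeR adjusted p = 1). Of 17 immediate early genes only Egr4 passed, higher in Martinotti cells (0 to 62.5 against 0 to 6.79 CPM, edgeR adjusted p = 0.0488), and its call was lost without any one animal (up to 0.214) and without any single library but Martinotti 2 and 3 and long-projecting 4 (up to 0.18).

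Genes of oxidative phosphorylation and ribosomal proteins, which serve energy supply and protein synthesis, were shifted by small amounts toward long-projecting cells. Of 53 genes of the respiratory chain and ATP synthase 0 rose in Martinotti and 7 in long-projecting cells, the median log2 fold change was -0.62, and 2 of the 53 were above 0. Atp5g1, a subunit of the ATP synthase ring, was at 123, 245, 195 and 189.9 CPM in Martinotti and 373, 420.3 and 477 CPM in long-projecting libraries, 2.26-fold higher (edgeR adjusted p = 0.00777). Sdhb, of succinate dehydrogenase, was at 113 to 176 against 365 to 478 CPM, 2.82-fold higher (edgeR adjusted p = 0.0102), and Atp5j was 2.32-fold and Ndufb5 of the first complex 2.14-fold higher (edgeR adjusted p = 0.0121 and 0.0279). The calls of Atp5g1 and Sdhb were lost without animal 2 (edgeR adjusted p = 0.0836 and 0.127), that of Atp5j without 1 or 2 (up to 0.0767) and that of Ndufb5 without 2, 15, 16, 17 or 18 (up to 0.226) or Martinotti library 1 alone (0.132). The list held 4 calls without animal 1 and 1 without animal 2. The summed level of the list was 16545 to 18927 CPM in Martinotti and 22072 to 27119 CPM in long-projecting libraries, which did not overlap.

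Of 51 ribosomal protein genes 0 rose in Martinotti and 3 in long-projecting cells, with a median log2 fold change of -0.56 and 2 of the 51 above 0. Rpl7 was at 375, 365, 282 and 517 CPM in Martinotti and 572, 697 and 847 CPM in long-projecting libraries, 1.81-fold higher (edgeR adjusted p = 0.00568, held without each animal). Rps25 and Rpl23 were 2.93-fold and 2.05-fold higher (edgeR adjusted p = 0.0358 and 0.0472), and both were lost without any one animal (up to 0.259 and 0.294). Rps25 was lost also without Martinotti library 2 or 3 (edgeR adjusted p up to 0.0575) and Rpl23 without any single library but Martinotti 2 and 4 and long-projecting 6 (up to 0.0748). Summed, the ribosomal genes were at 18311 to 21135 CPM in Martinotti and 23309 to 26892 CPM in long-projecting libraries. Both lists kept a median below 0 under every scaling tried. Counts are relative to the library, so a higher share and more RNA per cell cannot be told apart. Rn45s, a ribosomal RNA precursor, also followed the type, with no overlap and a called 4.39-fold difference. It made up 0.0467 to 0.267% of counts in Martinotti and 0.322 to 1.86% in long-projecting libraries. The part of such a difference between libraries in these shifts was not tested.

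**Figure D4:**
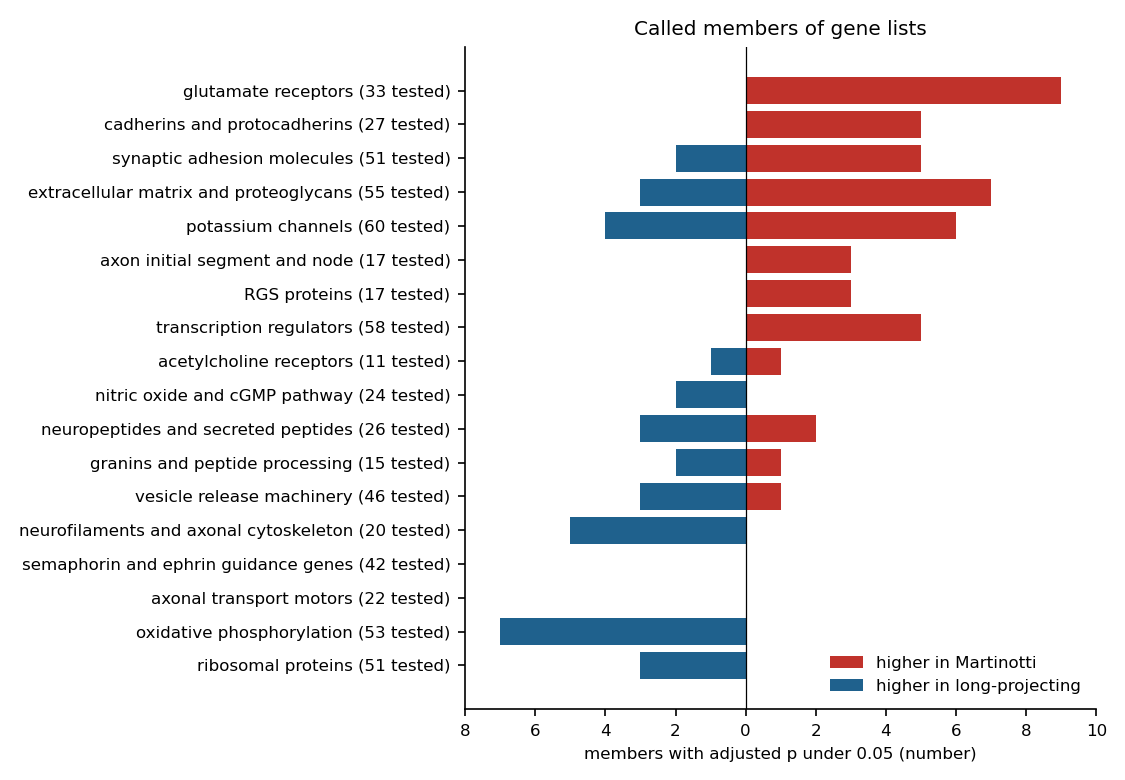
Number of genes that passed the test (x axis, to the right higher in Martinotti and to the left higher in long-projecting cells) in 18 gene lists (y axis). Glutamate receptors have 9 calls to the right and 0 to the left, and oxidative phosphorylation has 0 to the right and 7 to the left.

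**Figure D5:**
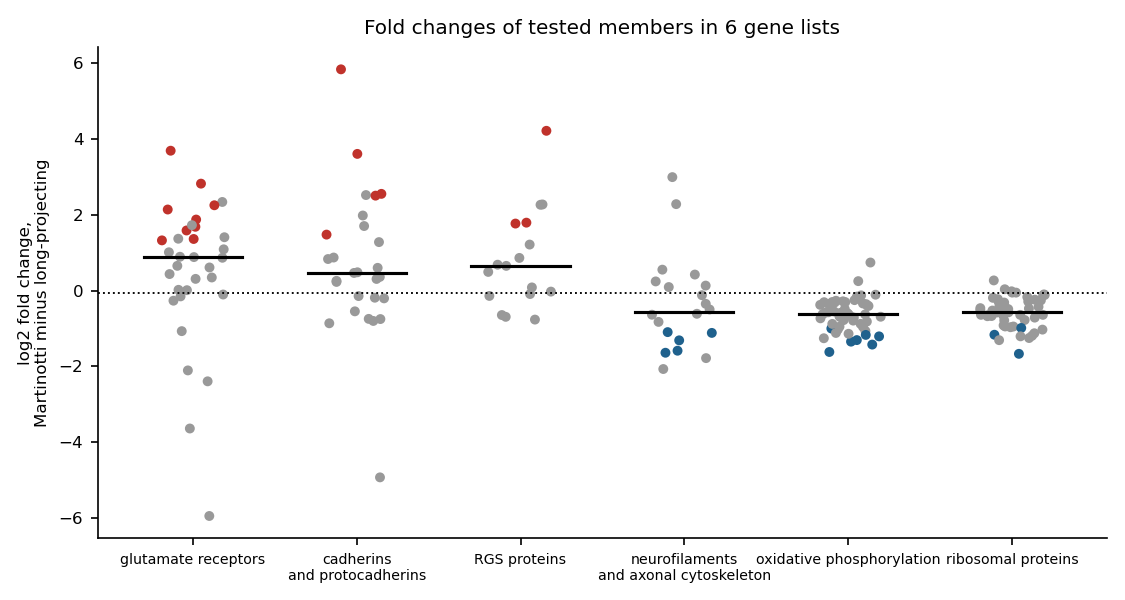
Fitted log2 fold change, Martinotti over long-projecting (y axis), of each tested member of 6 lists (x axis), red or blue where the member passed as higher in Martinotti or in long-projecting cells; black lines are list medians and the dotted line is the median over all genes, -0.05. Glutamate receptors have a median of 0.89 and oxidative phosphorylation one of -0.62.

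Against the other 5 types of the series, the called genes showed which of the pair stood apart. Over all tested genes the Martinotti mean alone lay outside the range of the other 5 type means in 19.2% and the long-projecting mean alone in 14.9%, both did in 11.7% and neither in 54.2%. Of the 280 genes higher in Martinotti cells, 94 (33.6%) had only the Martinotti mean outside, 76 (27.1%) only the long-projecting mean, 63 (22.5%) both and 47 (16.8%) neither. Of the 327 genes higher in long-projecting cells, 126 (38.5%) had only the long-projecting mean outside, 79 (24.2%) only the Martinotti mean, 69 (21.1%) both and 53 (16.2%) neither. Called genes had to differ between the pair, so a higher share outside the range follows in part from the choice. Gria1 and Unc13c were examples in which Martinotti cells stood apart, and Zeb2 was an example in which long-projecting cells did.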

How the data were processed

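RNA of single red fluorescent neurons was amplified linearly in 2 rounds and counted from its polyA end with a random tag, per the labels' protocols. The submitters' processing notes name Bowtie 0.12.7 and the genome build mm9. The authors deposited 1 table of estimated counts for 23335 genes in 584 cells, of which 4.07% of the values above 0 were not whole (tolerance 1e-06), in 1678 genes. The sources used here leave unsaid if a count is a read or a tag, and the floor covers counting error alone. Genes are called partly shared if they had non-whole counts or the same counts as another gene in every library. The second rule covered 75 genes with a total of at least 50 counts. The table held 0 columns of other samples.

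Counts were summed per labelled animal and rounded. Of the animals of another type, PV basket, 7 with 8 and 9 with 10 were merged. The reason was that 8 pairs of their libraries differed by only 1.22 to 1.72 times sampling noise, under a limit of 2. One fit over 16 replicates of 7 types (9 residual degrees of freedom) used edgeR 4.0.16 (R 4.3.3; TMM scaling, filterByExpr, robust quasi-likelihood test, Benjamini-Hochberg adjustment, threshold 0.05). DESeq2 1.42.0 was an alternative. The edgeR code was run on simulated independent counts, in which sex, age and flow cell had no part. That run checks the code alone and says nothing of these animals. Animals are those that the labels number, 18 in all, whereas the design text of the series speaks of 4, so that how far numbered animals are independent is uncertain and p-values measure the spread between these sums. Folds are ratios of mean CPM over animals. Where all libraries of the lower group were at 0, a bound against 3 counts over that group replaces the fold, and for 1 to 3 counts levels alone are given.

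Members and gene lists were chosen with earlier results of these data known. Named were the driver genes, the 15 largest ratios per direction among called genes of at least 50 CPM without overlapping libraries, up to 4 called and 2 uncalled members per list, and the markers; 31 clone-named genes were passed over, not all named genes are described, and exceptions are said. Title numbers do not pair the libraries: deviations of same-numbered libraries correlated at -0.037, -0.021, -0.016 and -0.054. Promoter sequences are those of RefSeq, matched by symbol for both genes shown. Results for some genes are left out here.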

Additional observations from a re-analysis of the deposited data

Results flagged for a closer look

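In groups of 4 Martinotti or 9 long-projecting libraries, 17 of 96 groups of values (48 genes) held a library far from the others by Dixon's criterion. The criterion flags about 1 in 20 groups of independent, normally distributed values. Libraries of the same animal and values near 0 do not meet that condition, so the number of flags cannot be compared with that rate. In Martinotti cells these were Pvalb in library 2 (7.38 CPM), Cdh7 in library 3 (329 CPM) and Nptx1 in library 1 (0.37 CPM). In long-projecting library 2, whose summed oligodendrocyte markers were the highest, they were Vip (2.77 CPM), Crh (4.61 CPM), Kcnk13 (5.99 CPM) and Sv2c (65 CPM). Library 8 stood apart for Igsf3 (4.38 CPM), Kif26b (8.98 CPM), Elfn1 (231 CPM) and Cbln4 (45.1 CPM), and library 7 for Cenpa (4.96 CPM), Slc30a3 (86.5 CPM) and Calb1 (663 CPM). Single values apart were Xist in library 1 (0.444 CPM), Rasl11a in library 3 (8.33 CPM) and Rara in library 6 (10.3 CPM). In each case the library was the highest of its type. The Elfn1, Igsf3, Crh, Kcnk13, Cenpa, Rasl11a, Rara and Cdh7 calls held without each animal.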

How the results depend on the processing

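Counts of genes higher in Martinotti and in long-projecting cells, 280 and 327, became 736 and 1063 with DESeq2, 900 and 1000 when only the 6 animals of the pair were fitted, 543 and 652 with all 18 labelled animals, and 1441 and 1267 with the 13 libraries as replicates. Without one animal they ran from 118 to 229 and from 68 to 314, and without one library from 249 to 362 and from 254 to 484. With libraries 1 to 4 of each type and the library number as a replicate block, 212 and 190 genes passed, and without the block, an alternative chosen after seeing the data, 391 and 358; the numbers do not pair the samples. Other scaling, no filter on low counts and equal weight of cells left both counts within 1.5 times. No called gene passed in the opposite direction in any fit. The sign of a call that was lost was followed only for the genes counted next. Of 141 genes followed over 28 settings, 3377 gene values kept direction and side of the threshold, 514 lost the call, 34 gained it and 9 changed sign, none of them called: Cck without animal 1 or Martinotti library 2, Pvalb with cells of equal weight (-0.0461) and without animal 1 or 18 or Martinotti library 2, Myh8 without animal 2 or Martinotti library 3, and Sv2c without animal 2. Without one animal or library, their log2 fold changes ran from -4.22 to 1.43 for Cck (-0.14 without Martinotti library 2), from -3.08 to 1.3 for Pvalb (-2.21 without animal 1, -0.00452 without animal 18), from -0.55 to 1.47 for Myh8 (-0.023 without Martinotti library 3) and from -0.0604 to 1.92 for Sv2c. The cause was not tested. The lists without each Martinotti animal were also added after seeing the data. With 2 Martinotti animals, genes near the floor of 0.362 CPM are measured least well.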
